A study of Mus musculus with 24 samples.

Results

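The cell cycle and DNA replication genes described here are a list of 43 genes that drive or mark cell division. They were followed in uterus RNA of ovariectomized mice hybridized to Affymetrix mouse arrays. A gene was measured by the brightest probe set whose platform annotation names that gene alone. By this rule 40 of the 43 genes were measured, among 12422 tested probe sets that name 8251 single genes in all. No probe set names Ccnb1 or Bub1b, and Tyms is named only together with Tyms-ps, so these 3 genes have no value of their own.

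Wild-type mice and progesterone receptor knockout (PRKO) mice lost their ovaries at 6 wk of age, and 2 weeks later received sesame oil as vehicle or progesterone (P4) at 1 mg per mouse. Injections came every 12 h, and uteri were taken 4 h after the first injection (the 4 h groups) or 4 h after the fourth (the 40 h groups). Genotype, treatment and time give 8 groups of 3 arrays, 24 arrays in all, and every group shares the ovariectomy. RNA from 5 mice was pooled per genotype and treatment. Whether arrays within a group carry different pools is left unsaid by the labels. The p-values therefore measure the spread between these arrays, which may be technical. The labels give neither the strain nor the design of the knockout allele.

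Cells enter division when D-type cyclins with Cdk4, and then cyclin E with Cdk2, release E2F factors from the retinoblastoma protein. E2F targets load and fire the MCM helicase and supply nucleotides and fork proteins for S phase. Genes of G2 and mitosis follow later through CCAAT boxes and CHR elements in their promoters, while Cdkn1a, Cdkn1b and Cdkn1c hold the kinases back. In the mouse uterus, estrogen drives division of the epithelium, and progesterone, through its receptor, restrains that division and prepares the stroma to divide. After ovariectomy both ovarian hormones are withdrawn and the uterus is largely at rest.

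The vehicle uteri of the PRKO mice held more mRNA of 5 of the 40 genes than wild-type vehicle uteri, namely Pclaf, Top2a, Mki67, Cks2 and Mcm3, and none of the 40 passed as lower. Their promoters are shown because these are the members that passed in that comparison. Each sequence is the 200 bases before the RefSeq start in GRCm38.p6, on the gene's strand. Pclaf lies at chr9:65890123-65890322 on the plus strand and Cks2 at chr13:51645032-51645231 on the plus strand. Top2a lies at chr11:99024190-99024389, Mki67 at chr7:135716380-135716579 and Mcm3 at chr1:20820313-20820512, all on the minus strand. Capitals mark CCAAT or its complement ATTGG, and the CHR letters TTTGAA or their complement TTCAAA.
Pclaf: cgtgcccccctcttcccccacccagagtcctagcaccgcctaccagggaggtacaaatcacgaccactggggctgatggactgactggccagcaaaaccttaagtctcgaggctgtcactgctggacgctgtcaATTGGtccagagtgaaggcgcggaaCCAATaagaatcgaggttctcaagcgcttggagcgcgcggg
Top2a: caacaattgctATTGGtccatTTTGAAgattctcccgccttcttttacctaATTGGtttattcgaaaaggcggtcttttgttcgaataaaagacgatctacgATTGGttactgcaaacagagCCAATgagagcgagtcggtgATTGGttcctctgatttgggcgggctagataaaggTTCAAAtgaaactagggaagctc
Mki67: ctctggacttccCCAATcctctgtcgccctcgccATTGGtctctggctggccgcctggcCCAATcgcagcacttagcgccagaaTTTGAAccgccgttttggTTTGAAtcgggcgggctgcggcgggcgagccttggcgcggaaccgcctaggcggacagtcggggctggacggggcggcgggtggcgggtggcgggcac
Cks2: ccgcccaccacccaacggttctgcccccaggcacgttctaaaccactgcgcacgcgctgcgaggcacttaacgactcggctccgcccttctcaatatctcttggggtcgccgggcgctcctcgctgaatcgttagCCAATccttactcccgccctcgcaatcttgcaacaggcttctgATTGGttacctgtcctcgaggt
Mcm3: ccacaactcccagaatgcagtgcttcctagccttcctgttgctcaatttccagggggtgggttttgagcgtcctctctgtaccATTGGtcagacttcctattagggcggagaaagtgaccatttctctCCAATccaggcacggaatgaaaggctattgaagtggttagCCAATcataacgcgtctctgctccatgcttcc
The Top2a stretch held 5 CCAAT matches and 2 CHR matches, none of them overlapping, and that of Mki67 held 3 and 2. The Mcm3 stretch held 3 CCAAT matches, and those of Pclaf and Cks2 held 2 each. Over the 250 bases before the start, on both strands, CCAAT stood in 64.1% of 39 promoter windows of the 33 measured members with a RefSeq window, against 33.8% of all 32851 windows. The CHR letters TTTGAA or TTTAAA stood in 38.5% against 25.2%. The E2F letters TTTCCCGC, TTTCGCGC, TTTGCCGC or TTTGGCGC stood in 15.4% against 1.86%, and in none of the 5 promoters shown. The consensus of the progesterone response element, an inverted repeat, stood in 0 of the 39 member windows and in 0.167% of all windows. A match of letters describes the sequence only.

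Values are the deposited signals brought to a common level per array, and differences are on the log2(signal + 32) scale with the standard error (SE) from limma. A gene passed where its p, adjusted over all 12422 probe sets by the Benjamini-Hochberg method, was under 0.05. The offset compresses the differences of dim genes, and signals are compared only within a probe set. Mcm6 and Aurka had a mean signal under 100, where the offset weighs most. The probe set of Pgr, the receptor gene, ranged over 103 to 169 on wild-type arrays and over 110.2 to 139 on PRKO arrays, which overlap, so it does not check the genotype labels. The Gapdh control, whose 3' signal over its 5' signal rises as RNA degrades, had a ratio of 3.67 and 3.25 in replicate 2 of the wild-type vehicle and wild-type P4 groups at 4 h, and 1.23 to 1.86 elsewhere.

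Pclaf, which encodes a PCNA-binding protein of the replication fork, differed most firmly between the genotypes. In vehicle uteri at 4 h its signal was 123, 106 and 101 in wild type and 195, 211 and 194 in PRKO. At 40 h it was 113, 129.6 and 143 in wild type and 205, 187 and 166 in PRKO. Every PRKO vehicle array lay above every wild-type vehicle array, across both times. Pooled over the times, 6 arrays against 6, Pclaf was higher in PRKO by 0.58 ± 0.07 (log2, SE), or 1.49-fold, with an adjusted p of 5.58e-05. Pclaf has 2 further probe sets, both marked by Affymetrix as short of its design rules, and their differences were 0.03 and -0.05.

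Top2a, the topoisomerase that untangles DNA for mitosis, had signals of 92.0, 113 and 82.5 in wild type and 152, 181 and 177 in PRKO at 4 h. At 40 h the values were 96.8, 105 and 108 in wild type and 154, 121 and 145 in PRKO. The groups did not overlap at either time, and the lowest PRKO array was replicate 2 at 40 h. Top2a was higher in PRKO by 0.50 ± 0.08 (adjusted p = 0.00409).

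Mki67, the gene of the proliferation marker Ki-67, had signals of 124, 133 and 114 in wild type and 235, 195 and 252 in PRKO at 4 h. At 40 h it had 97.1, 209.8 and 173 in wild type and 195, 192 and 199.7 in PRKO. The groups were apart at 4 h and overlapped at 40 h, where the wild-type arrays spread widely. Pooled over the times, Mki67 was higher in PRKO by 0.51 ± 0.10 (adjusted p = 0.0173). It did not pass without PRKO replicate 3 at 40 h, PRKO replicate 3 at 4 h or wild-type replicate 3 at 4 h (adjusted p 0.0548 to 0.0593). Its second probe set differed by 0.26 and did not pass (adjusted p = 0.142).

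Cks2, a small subunit bound by cyclin-dependent kinases, had signals of 117, 116 and 148 in wild type and 167, 237 and 253 in PRKO at 4 h. At 40 h these were 126, 167 and 160.2 in wild type and 197, 188 and 192 in PRKO. The groups did not overlap at either time, and Cks2 was higher in PRKO by 0.48 ± 0.09 (adjusted p = 0.017). It did not pass without PRKO replicate 3 at 4 h (adjusted p = 0.057) or without wild-type replicate 1 at 40 h (0.0600). The related Cks1b differed by 0.18 ± 0.06 and did not pass (adjusted p = 0.365).

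Mcm3, a subunit of the MCM replicative helicase, had signals of 438, 432 and 422 in wild type and 568, 659.7 and 542 in PRKO at 4 h. At 40 h it had 495, 428 and 485 in wild type and 617, 521 and 563 in PRKO. All 6 PRKO arrays lay above all 6 wild-type arrays, and Mcm3 was higher in PRKO by 0.34 ± 0.06 (adjusted p = 0.00699). A second Mcm3 probe set differed by 0.27 (adjusted p = 0.0634). The Mcm3 set used here bears a suffix with which Affymetrix marks sets that can match more than 1 transcript, as do those of Plk1 and Cdc25c.

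**Figure D1:**
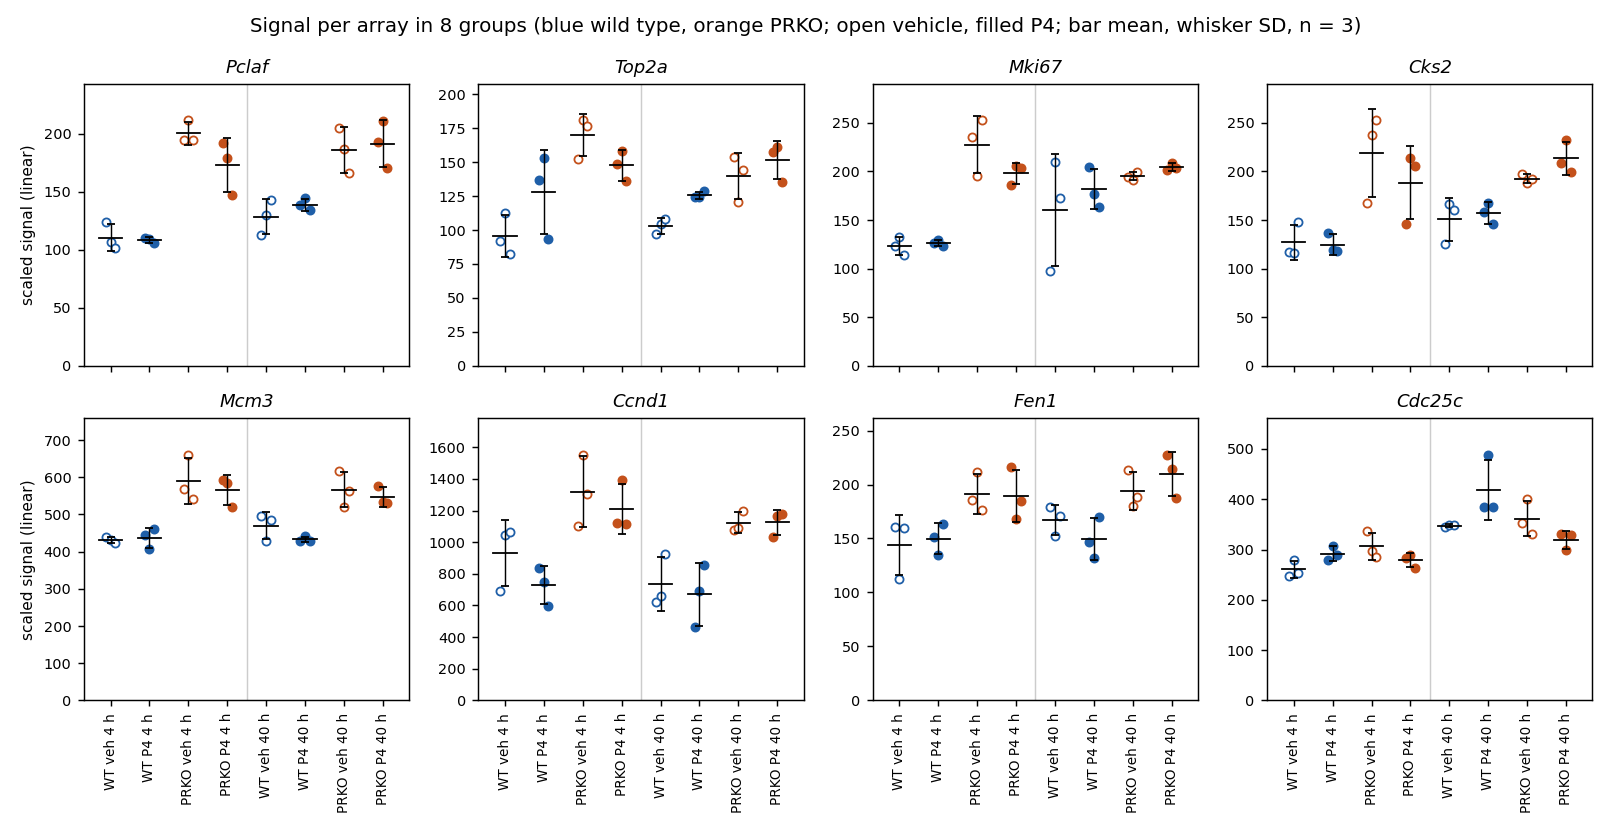
Scaled signal on a linear axis for Pclaf, Top2a, Mki67, Cks2, Mcm3, Ccnd1, Fen1 and Cdc25c in each of the 8 groups; points are arrays, the bar is the mean and the whisker the SD of 3 arrays. For Pclaf, the 6 PRKO vehicle arrays (166 to 211) lie above the 6 wild-type vehicle arrays (101 to 143). For Cdc25c, the vehicle arrays at 40 h lie above those at 4 h in wild type and overlap them in PRKO.

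The 5 passing members were 5 of 40, where 0.443% of all probe sets passed in either direction and 0.25% passed as higher in PRKO. The difference was positive for 34 of 40 members, with a median of 0.13, and for 6353 of 12422 probe sets, with a median of 0.00. At an unadjusted p under 0.05, 20 members were higher in PRKO and 0 lower, against 3.13% of all probe sets higher. Arrays of the genotypes did not overlap at either time, with PRKO higher, for 8 members (Top2a, Cks2, Mcm3, Mcm7, Ccnd1, Cdk4, Fen1 and Pclaf), against 0.588% of all probe sets. The reverse held for 0 members and 0.427% of all probe sets. Fitted on the 4 vehicle groups alone, with fewer arrays for the spread, Pclaf and Top2a passed. Mcm3, Cks2 (both adjusted p = 0.0844) and Mki67 (0.177) did not, and why these calls were lost was not tested.

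By role, the difference was positive for all 4 proliferation and mitosis markers (Mki67, Top2a, Kif11 and Birc5, median 0.34), both Cks subunits (0.33), all 6 MCM subunits (0.19) and all 6 genes of the replication origin and fork (0.21). Beside Pclaf, the fork genes were Fen1, the flap nuclease (0.27 ± 0.08, adjusted p = 0.272), the sliding clamp gene Pcna (0.22 ± 0.08, adjusted p = 0.565), Lig1, Prim1 and Cdc6. Cdc6 differed by 0.09 ± 0.11, and passed at 0.24 (adjusted p = 0.0299) without wild-type replicate 2 at 40 h, an array of high signal. The nucleotide genes Rrm1, Rrm2 and Tk1 differed by 0.14, 0.09 and -0.04. The cyclins of S phase and mitosis, Ccna2 and Ccnb2, differed by -0.02 and -0.06, and neither passed. Cdk1, the kinase those cyclins activate, differed by 0.24 ± 0.09 (adjusted p = 0.604). With the Gapdh ratio as a covariate Cdk1 passed, at 0.31 (adjusted p = 0.0363).

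Among the G1 cyclins, Ccnd1 (cyclin D1) had vehicle signals of 692, 1045 and 1061 in wild type and 1105, 1550 and 1302 in PRKO at 4 h. At 40 h it had 619.8, 657 and 928 in wild type and 1079, 1089 and 1199 in PRKO. The arrays of the genotypes did not overlap, but the wild-type arrays spread widely, and the difference of 0.55 ± 0.14 did not pass (adjusted p = 0.0835). Without replicate 3 of the wild-type vehicle group at 40 h it passed, at 0.64 (adjusted p = 0.037). The second Ccnd1 probe set differed by 0.05. Ccnd2, Ccnd3 and Ccne1 differed by -0.07, -0.09 and 0.06. The inhibitors Cdkn1a, Cdkn1b and Cdkn1c differed by -0.01, 0.09 and 0.01, and none passed.

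At 4 h alone 5 members passed, against 0.185% of all probe sets, and they were the same Pclaf, Top2a, Mki67, Mcm3 and Cks2. At 40 h alone 0 members passed in limma, where 0.0644% of all probe sets passed, and the smallest adjusted p was 0.0951, for Pclaf. At an unadjusted p under 0.05 there were 9, each higher in PRKO, against 1.31% of all probe sets. The genotype difference at 40 h was then set against that at 4 h. For 0 members did the time difference pass, as for 0% of all probe sets. Mki67 had the 1 unadjusted p under 0.05 among members, at -0.44 ± 0.20 (adjusted p = 1.00), against 1.61% of all probe sets.

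Of 8 lists of cell type markers, none had a passing gene between the vehicle genotypes. The median difference was -0.05 for 11 epithelial, -0.06 for 11 stromal, -0.09 for 9 smooth muscle and 0.01 for 6 lymphocyte genes. For 7 macrophage genes it was -0.07, with 3 higher and 4 lower in PRKO, and 4 higher and 3 lower at 40 h alone. Their summed signal, which weighs the brightest genes most, was lower in PRKO at both times. At 4 h this sum lay between 3491 and 4620 for wild-type arrays and between 3214 and 3421 for PRKO arrays. At 40 h it lay between 4052 and 4132, against 3703 to 3889. The part of macrophage genes in the results was not tested. No marker was at 0 on any array, and in whole uterus a change in the share of a cell type cannot be told apart from a change of RNA per cell.

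The P4-treated uteri share no array with the vehicle uteri, but both genotype differences come from the same fit, with a shared spread. The difference under P4 also holds the P4 response of each genotype, and this comparison was added after seeing the data. PRKO was higher for 5 of 40 members and lower for 0, against 3.16% of all probe sets passing in either direction and 1.39% as higher. Pclaf (0.46 ± 0.07, adjusted p = 0.00015), Mcm3 (0.33 ± 0.06, 0.00189) and Cks2 (0.43 ± 0.09, 0.00961) passed here as in vehicle, which is 60% of each list of 5. Over all probe sets 42 passed in both, 76.4% of 55 in vehicle and 10.7% of 393 under P4.

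The other members that passed under P4 were Ccnd1 and Fen1. Ccnd1 signals were 837, 747 and 598 in wild type and 1121, 1394 and 1114 in PRKO at 4 h, and 462, 691 and 859 against 1036, 1163 and 1181 at 40 h. All 6 PRKO arrays lay above all 6 wild-type arrays, and the difference was 0.74 ± 0.14, or 1.67-fold (adjusted p = 0.00299). The second Ccnd1 probe set differed by 0.06. Fen1 signals were 152, 135 and 163 in wild type and 216, 169 and 184 in PRKO at 4 h, and 147, 132 and 170.0 against 227, 214 and 187 at 40 h. Within each time these did not overlap, and Fen1 was higher in PRKO by 0.35 ± 0.08 (adjusted p = 0.0172). It did not pass without PRKO replicate 1 or 2 at 40 h, PRKO replicate 1 at 4 h, or wild-type replicate 2 at either time (adjusted p 0.0517 to 0.0623).

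For the 3 members that passed in both, the P4 signals were as follows. Pclaf had 110.0, 109 and 105 in wild type and 192, 179 and 147 in PRKO at 4 h, and 138, 144 and 134 against 193, 211 and 170.4 at 40 h. Cks2 had 137, 119 and 118 against 146, 214 and 206 at 4 h, and 158, 168 and 146 against 208, 233 and 199 at 40 h. Mcm3 had 444, 407 and 461 against 593, 584 and 519 at 4 h, and 427, 442 and 429 against 577, 532 and 529.8 at 40 h. The genotypes did not overlap at either time for any of the 3, and the Cks2 array closest to wild type was PRKO replicate 1 at 4 h.

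Top2a and Mki67 did not pass under P4, with 0.20 ± 0.08 (adjusted p = 0.205) and 0.34 ± 0.10 (adjusted p = 0.0655). Fitted on the 4 P4 groups alone, Mki67 passed at 0.34 (adjusted p = 0.00321). Whether their genotype difference depends on P4 was tested as the genotype difference of the P4 effect, and it did not pass at either time. Over all members the P4 difference was positive for 29 of 40, with a median of 0.05 against -0.02 for all probe sets, and 6 did not overlap at either time with PRKO higher (1.43% of all probe sets). At an unadjusted p under 0.05, 9 members were higher and 3 lower in PRKO, against 17% of all probe sets in both directions. The 3 lower were Mcm6 (-0.21 ± 0.06, adjusted p = 0.0525), Cdc25c (-0.21 ± 0.06, 0.0813) and Plk1 (-0.16 ± 0.06, 0.158). Mcm6 passed without wild-type replicate 3 at 4 h (-0.23, adjusted p = 0.0341) or PRKO replicate 3 at 40 h (-0.25, 0.0165). Mcm7, at 0.21 ± 0.07 (adjusted p = 0.0934), passed without wild-type replicate 1 at 4 h (0.26, 0.0343).

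**Figure D2:**
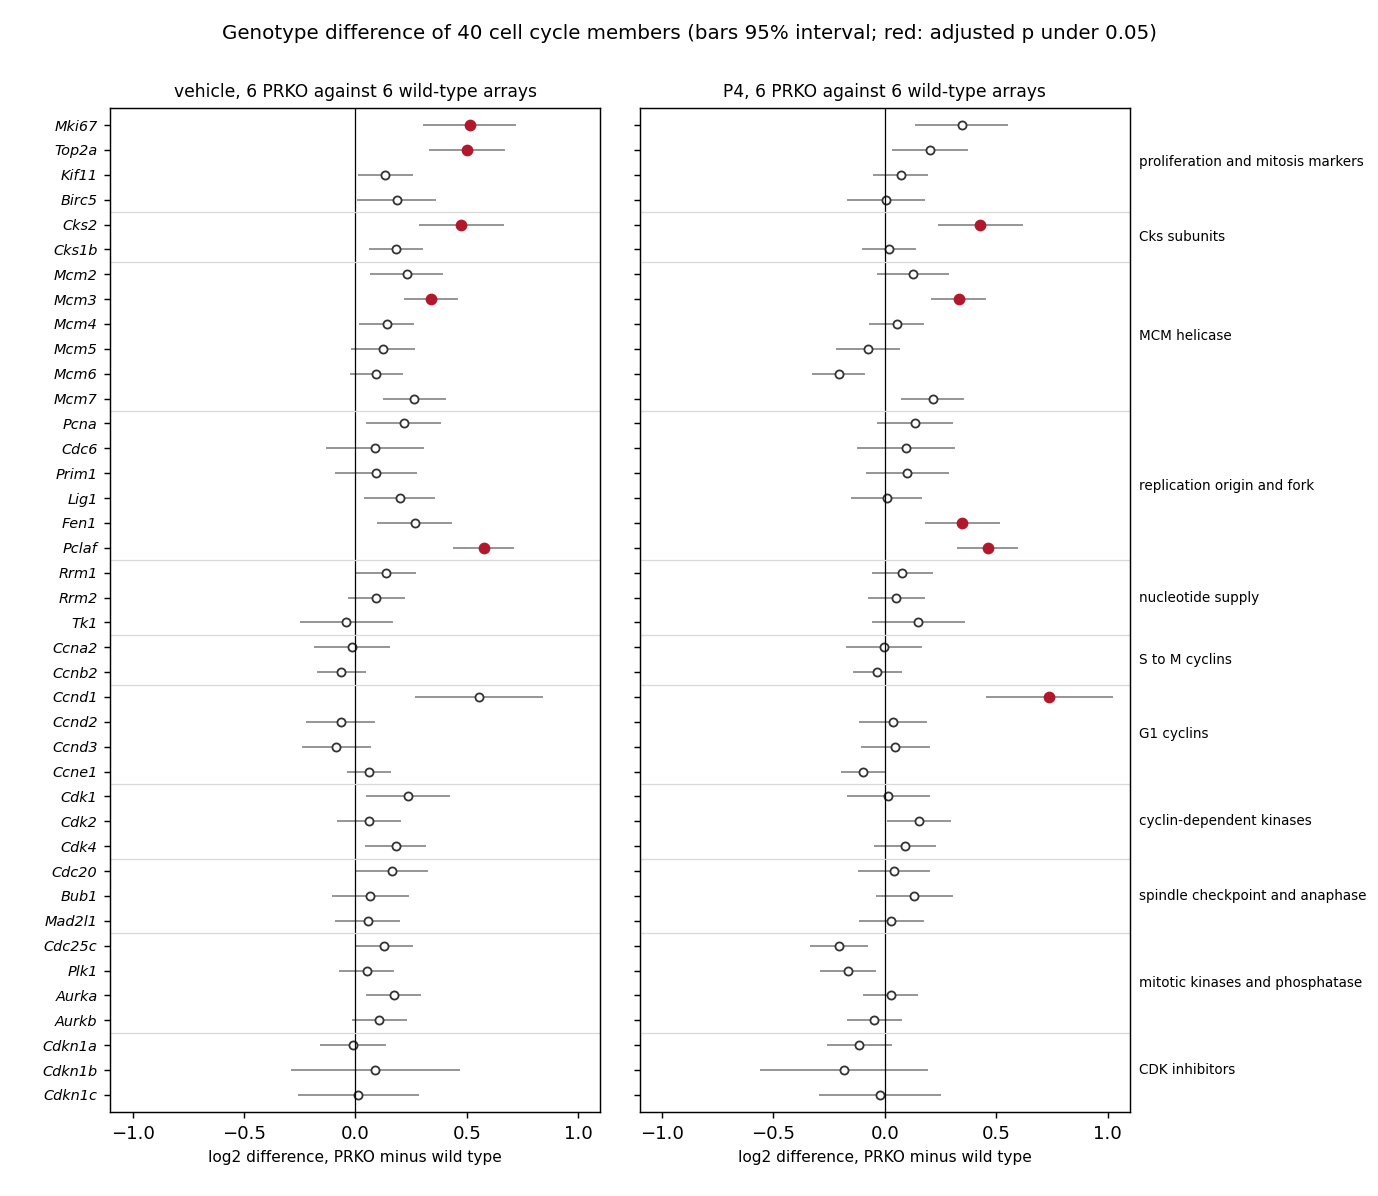
Log2 difference of PRKO minus wild type for the 40 measured members, ordered by role, in vehicle uteri (left) and P4 uteri (right), 6 arrays against 6; bars are 95% intervals and red points passed at an adjusted p under 0.05. In vehicle 34 of 40 points lie to the right of 0 and in P4 uteri 29 do, with Ccnd1 farthest right under P4 at 0.74.

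Split by time, 2 members passed at 4 h of P4 (Pclaf and Mcm3, against 1.22% of all probe sets). At 40 h Pclaf, Ccnd1 and Mcm3 were higher and Cdc25c, the phosphatase that activates Cdk1, was lower in PRKO, against 2.59% of all probe sets. Cdc25c signals at 40 h of P4 were 385, 488 and 384 in wild type and 331, 298 and 329 in PRKO, which do not overlap, with a difference of -0.35 ± 0.09 (adjusted p = 0.0359). The second Cdc25c probe set, a dimmer one, differed by -0.03 (adjusted p = 0.78). Non-overlap at that time held with PRKO higher for 12 members and 11.5% of all probe sets, and with PRKO lower for 7 members and 23.6% of all probe sets.

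Cell type markers moved between the genotypes under P4. Of 11 epithelial markers 3 were higher in PRKO (median of the list 0.28), and of 9 measured adipocyte markers 3 were higher (0.42). Of 7 macrophage markers 2 were lower, and of 11 stromal markers 1 was lower, where 3.16% of all probe sets passed. None of the 9 smooth muscle or 7 skeletal muscle markers passed, but all were lower in PRKO (medians -0.16 and -0.21). The summed adipocyte signal was 6148 to 10610 in wild-type P4 uteri at 40 h and 13150 to 19950 in the other arrays. With an adipose score as a covariate 1 member passed in place of 5, Pclaf. The difference was then 0.51 for Ccnd1 (adjusted p = 0.369), 0.29 for Mcm3 (0.156), 0.38 for Cks2 (0.32) and 0.29 for Fen1 (0.497). The score, the mean log2 level of the adipocyte markers, averaged 9.06 in wild-type P4 uteri at 40 h. In the other groups it averaged 9.85 to 10.2. The score thus moves with the comparison, so this fit cannot tell them apart, and the part of adipose tissue was not tested. At 4 h of P4 alone the members Pclaf and Mcm3 passed, as did 2 of 11 epithelial and 0 of 9 adipocyte markers, against 1.22% of all probe sets. The part of marker genes at 4 h was not tested. The summed epithelial signal at 4 h of P4 lay between 6649 and 7478 for wild type, against 7649 to 10455 for PRKO, and its part in the results was not tested.

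**Figure D3:**
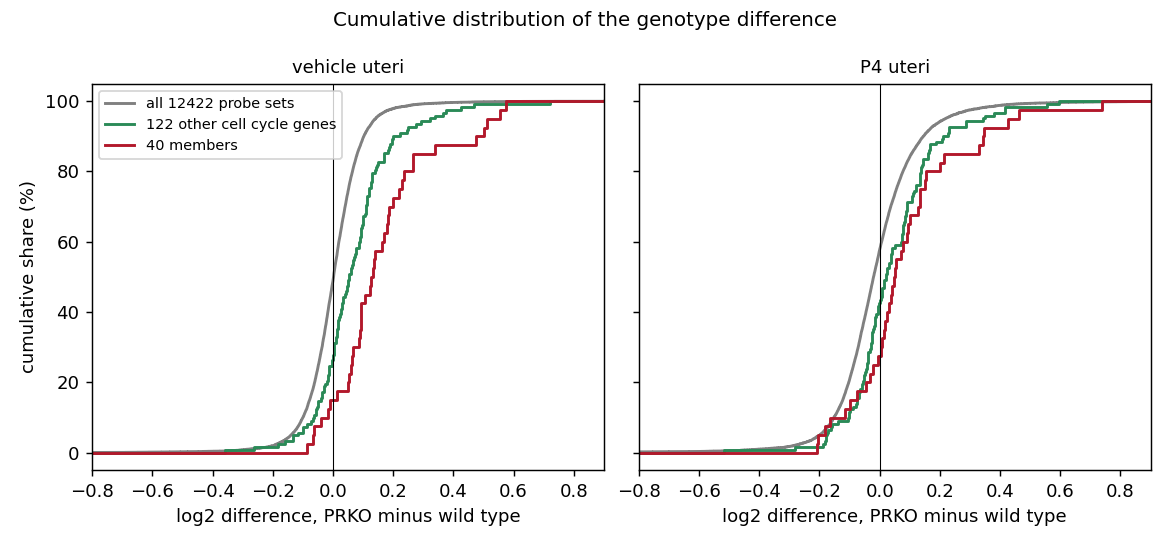
Cumulative share (%) of features at or below each log2 difference of PRKO minus wild type, for all 12422 probe sets (grey), 122 other cell cycle genes (green) and the 40 members (red), in vehicle and P4 uteri. In vehicle the median is 0.13 for members, 0.05 for the other cell cycle genes and 0.00 for all probe sets, and in P4 uteri it is 0.05, 0.02 and -0.02.

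A further 156 genes of the cell cycle, replication and mitosis were looked up by the same rule, and 122 were measured. In vehicle uteri 7 were higher in PRKO and 0 lower, where 0.443% of all probe sets passed. Of 122 differences 89 were positive, with a median of 0.05. The highest were Mycn, a MYC family transcription factor (0.72 ± 0.09, adjusted p = 0.000116), Stmn1, a microtubule regulator (0.47 ± 0.10, 0.0253), and Hells, a chromatin remodeller (0.43 ± 0.08, 0.00938). In P4 uteri 9 were higher and 1 lower, where 3.16% of all probe sets passed. The highest were Mycn (0.60 ± 0.09, adjusted p = 0.000234), Atm, the DNA damage kinase (0.55 ± 0.12, 0.0107), and Hells (0.42 ± 0.08, 0.00257), and the lower one was Ccng1, cyclin G1 (-0.52 ± 0.09, 0.00111). Of the passing genes 6 were shared, 85.7% of the 7 and 60% of the 10, against 76.4% and 10.7% for all probe sets.

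P4 itself changed none of the 40 members at an adjusted p under 0.05 in limma. This held in wild type at 4 h, where 0.708% of all probe sets passed, and at 40 h, where 1.54% passed. In PRKO uteri no probe set passed at 4 h or at 40 h, so members there had 0 of 40 against a background of 0%. At an unadjusted p under 0.05 there were 3 members in wild type at 4 h (against 6.23% of all probe sets), 2 at 40 h (11.7%), 1 in PRKO at 4 h (1.9%) and 2 in PRKO at 40 h (6.69%). The 95% interval lay within 1.5-fold in both directions for 38, 37, 39 and 39 of the 40 members in these 4 comparisons. Of all 12422 probe sets it did so for 11566, 11241, 11850 and 11762, a share near that of the members. The exceptions among members were Cdkn1b in all 4, Ccnd1 in wild type at 4 h, and Cdc6 and Cdkn1c in wild type at 40 h. The vehicle arrays also enter the vehicle genotype difference above, so the comparisons are not independent.

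In wild type at 4 h the highest differences were those of Top2a, Mcm6 and Cdk1. Top2a had 92.0, 113 and 82.5 in vehicle and 137, 153 and 93.1 under P4, which overlap through replicate 3 of the P4 group. The difference was 0.31 ± 0.12 (adjusted p = 0.515), and without that array it passed at 0.48 (adjusted p = 0.0221). Mcm6, a dim helicase subunit, had 45.6, 52.9 and 58.6 in vehicle and 66.6, 75.3 and 59.8 under P4, with no overlap and a difference of 0.23 ± 0.08 (adjusted p = 0.425). Cdk1 had 419, 612 and 422 in vehicle and 582, 605 and 458 under P4, which overlap (0.18 ± 0.13). Non-overlap with P4 higher held for 2 members, Mcm6 and Ccne1, against 3.65% of all probe sets.

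The lowest at 4 h were Ccnd1, Bub1 and Cdk2. Ccnd1 had 692, 1045 and 1061 in vehicle and 837, 747 and 598 under P4, and replicate 1 of the vehicle group lay within the P4 range (-0.33 ± 0.19, adjusted p = 0.932). Bub1, a spindle checkpoint kinase, had 121, 104 and 107 against 88.7, 91.8 and 115 (-0.13 ± 0.12). Its other probe sets, both dimmer, differed by 0.04 and 0.09. Cdk2 had 331, 317 and 254 against 296, 240.3 and 279 (-0.13 ± 0.10). All 3 genes overlapped between the treatments. The second probe sets of Ccnd1 and Cdk2 differed by -0.09 and -0.07.

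In wild type at 40 h the highest was Cdc25c, with 345, 349 and 348 in vehicle and 385, 488 and 384 under P4. The arrays did not overlap, and the difference of 0.24 ± 0.09 did not pass (adjusted p = 0.228). Top2a had 96.8, 105 and 108 against 124, 124 and 128, also without overlap (0.22 ± 0.12, adjusted p = 0.48). Mki67 had 97.1, 209.8 and 173 against 204, 177 and 164, which overlap (0.20 ± 0.14). With P4 higher, 6 members did not overlap, Top2a, Cks1b, Mcm6, Rrm2, Ccne1 and Cdc25c, against 9.76% of all probe sets, and with P4 lower 1 did, Tk1, against 10%.

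The lowest at 40 h were Cdc6, Cdkn1c and Ccnd3. Cdc6, which loads the helicase at origins, had 141, 298 and 142 in vehicle and 156, 135 and 141 under P4. Its difference of -0.29 ± 0.15 (adjusted p = 0.465) goes with the 1 high vehicle array, replicate 2. Cdkn1c had 1263, 949.7 and 1122 against 1156, 869 and 749 (-0.27 ± 0.19), and Ccnd3 had 1140, 1032 and 1069 against 1012, 837 and 1068 (-0.15 ± 0.11). Both overlapped between the treatments. In these same arrays 6 of 9 adipocyte markers were lower and 5 of 11 stromal markers higher under P4, where 1.54% of all probe sets passed. Lower too were 2 of 11 epithelial and 1 of 7 endothelial markers, and 1 of 7 skeletal muscle markers was higher. Their part in the member values was not tested.

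**Figure D4:**
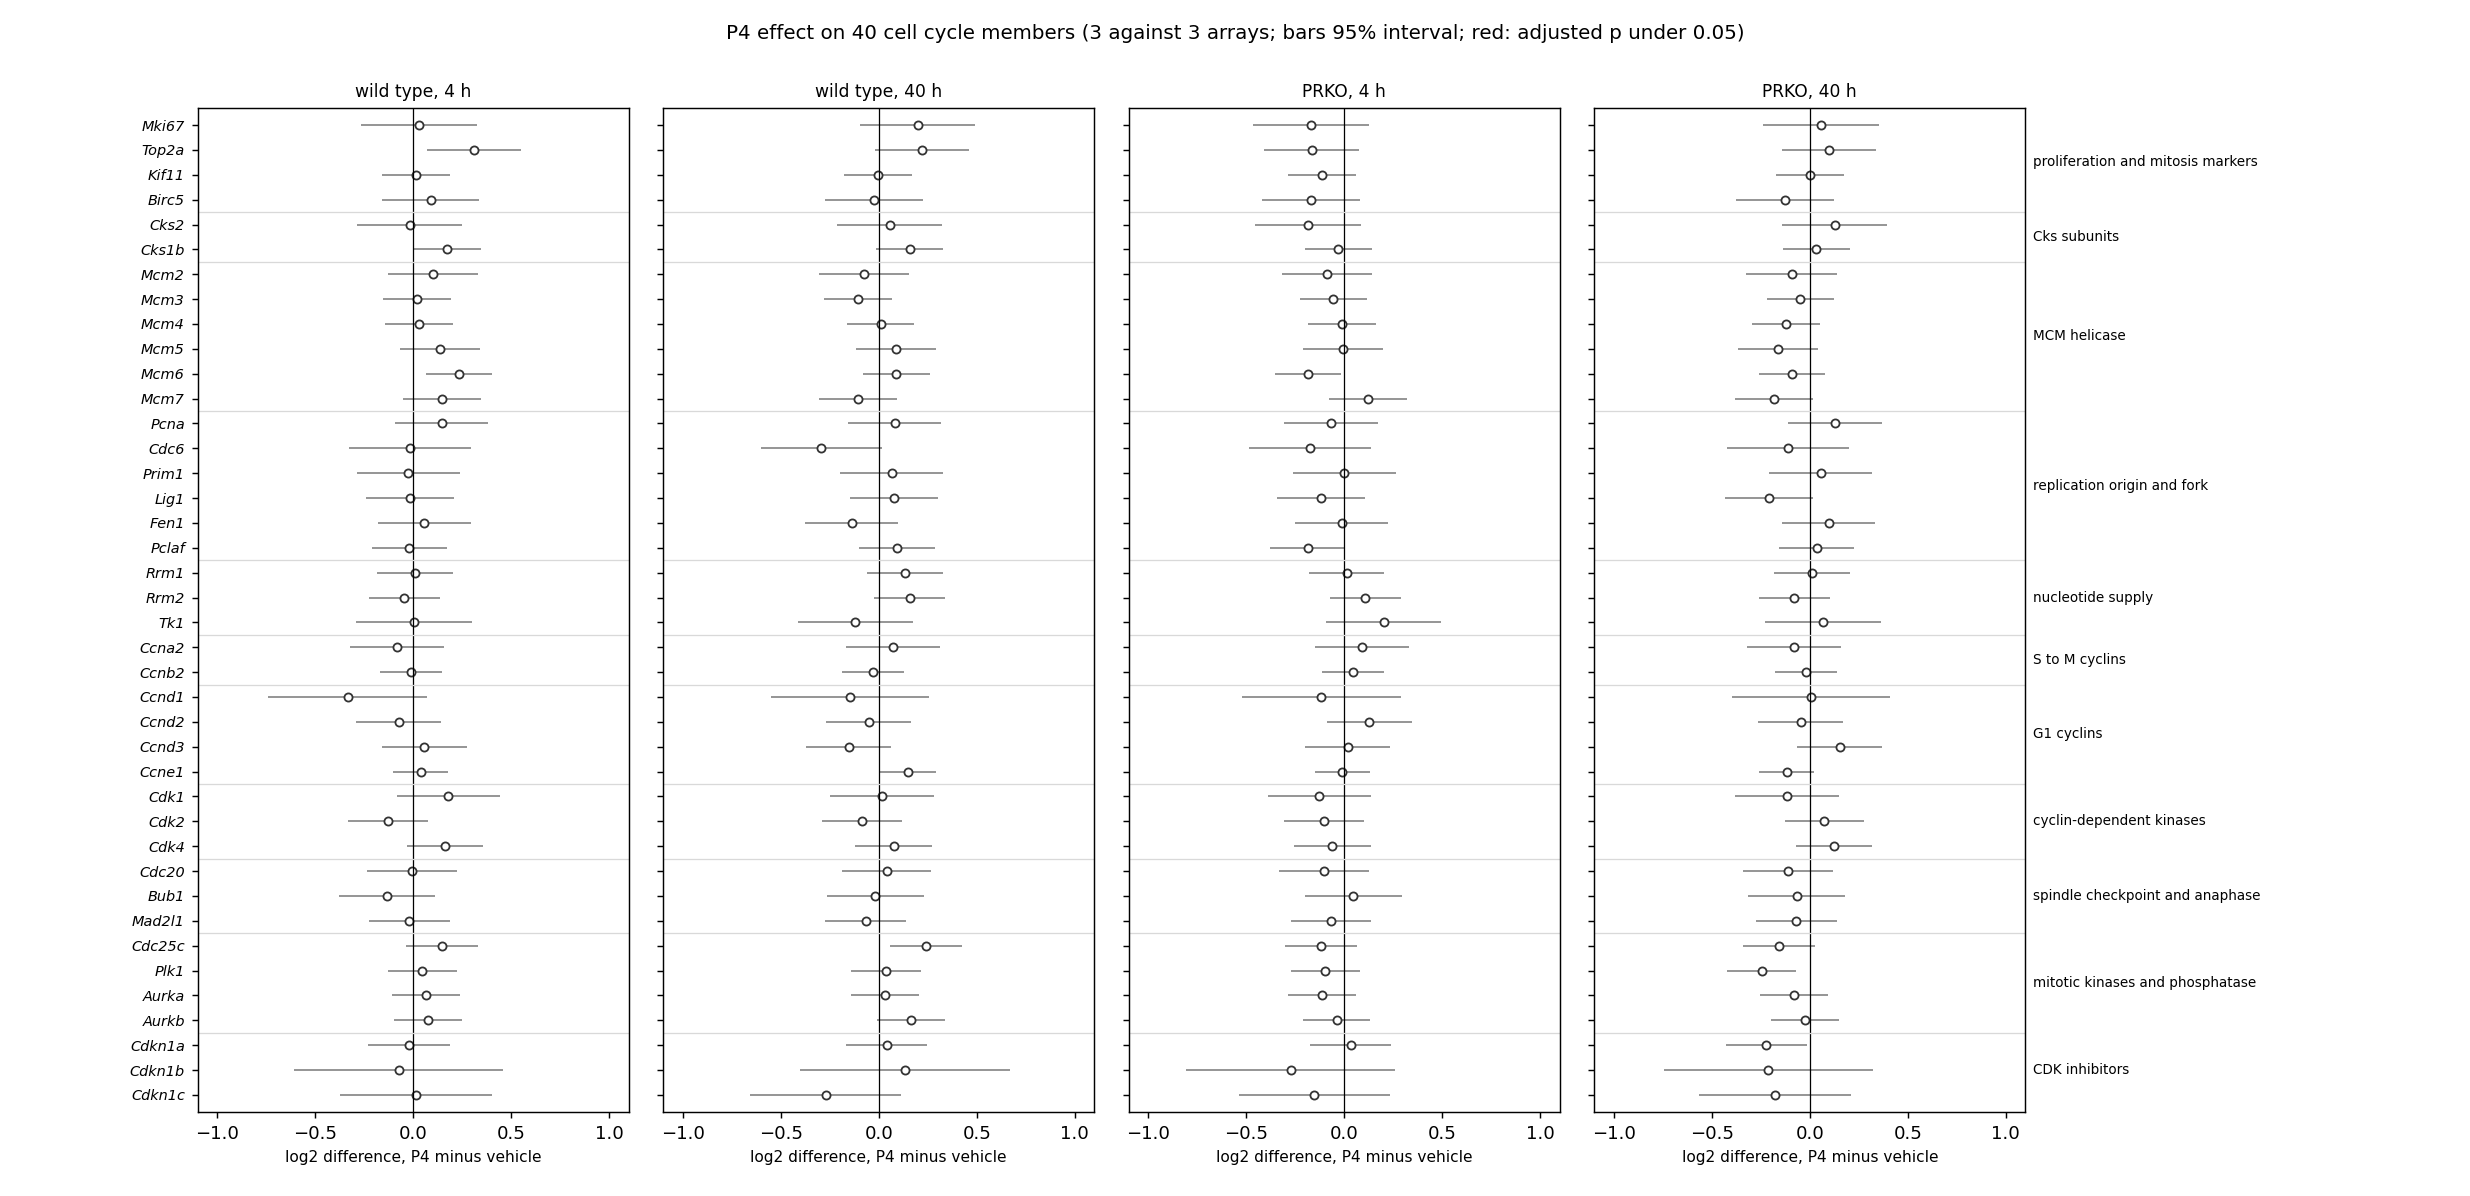
Log2 difference of P4 minus vehicle for the 40 members in wild type and PRKO at 4 h and 40 h, 3 arrays against 3, with 95% intervals; no point is red, since none passed. In wild type the points run from -0.33 (Ccnd1) to 0.31 (Top2a) at 4 h and from -0.29 (Cdc6) to 0.24 (Cdc25c) at 40 h.

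The member medians under P4 were 0.02 and 0.04 in wild type at 4 h and 40 h, where all probe sets had 0.00 at both times, and 24 of 40 members were positive at each. In PRKO the medians were -0.07 at both times, where all probe sets had -0.00 and -0.04, and 10 and 15 of 40 members (25% and 37.5%) were positive, against 47.9% and 36.6% of all probe sets. In PRKO at 4 h the lowest were Cdkn1b at -0.27, followed by Pclaf, Mcm6 and Cks2 at -0.19 each. In PRKO at 40 h 8 members did not overlap with P4 lower, against 16.4% of all probe sets, and 2 with P4 higher, Mki67 and Cks2, against 5.88%.

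The P4 effect in wild type was set against that in PRKO, which asks whether a response needs the receptor. For 0 of 40 members did this difference pass in limma, at 4 h (0.0966% of all probe sets passed, and 3 members had an unadjusted p under 0.05 against 3.49%) or at 40 h (0.105%, and 3 members against 9.1%). At 4 h these were Mcm6 (0.42 ± 0.12, adjusted p = 0.389), Top2a (0.48 ± 0.16, adjusted p = 0.772) and Cdc25c. Top2a passed at 0.64 (adjusted p = 0.0458) without replicate 3 of the wild-type P4 group at 4 h. At 40 h they were Cdc25c (0.40 ± 0.13, adjusted p = 0.349), Plk1 and Ccne1. The change of the wild-type P4 effect from 4 h to 40 h passed for 0 members, with 0 at an unadjusted p under 0.05, against 0.475% and 6.39% of all probe sets.

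Among the other cell cycle genes, Ccng1 was higher under P4 in wild type at 4 h by 0.63 ± 0.12 (adjusted p = 0.0129) and H2az1, a histone variant gene, fell by 0.50 ± 0.11 (adjusted p = 0.039). No gene of that list of 122 passed in wild type at 40 h, where 9 had an unadjusted p under 0.05, against 11.7% of all probe sets.

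The CDK inhibitors passed in no comparison. Cdkn1a (p21) had group means from 427 ± 8.22 (SD, n = 3) in PRKO P4 uteri at 40 h to 517 ± 28.4 in wild-type P4 uteri at 40 h. A second Cdkn1a probe set had a mean signal of 453, against 474 for the set used. Under P4 in wild type it differed by 0.22 ± 0.19 (SE) at 4 h and -0.49 ± 0.19 at 40 h. Neither passed (limma, adjusted p = 0.983 and 0.259). Cdkn1b (p27) spread widely between arrays of a group at 4 h, with 194 ± 79.9 in wild-type vehicle uteri. Cdkn1c (p57) had 1609 ± 389 in wild-type vehicle uteri at 4 h, where PRKO had 1489 ± 83.2. At 40 h the means were 1112 ± 157 and 1196 ± 62.7. Its vehicle difference of 40 h against 4 h was -0.41 ± 0.13 and did not pass (adjusted p = 0.0674). Without replicate 3 of the wild-type vehicle group at 4 h it passed, at -0.50 (adjusted p = 0.0264).

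**Figure D5:**
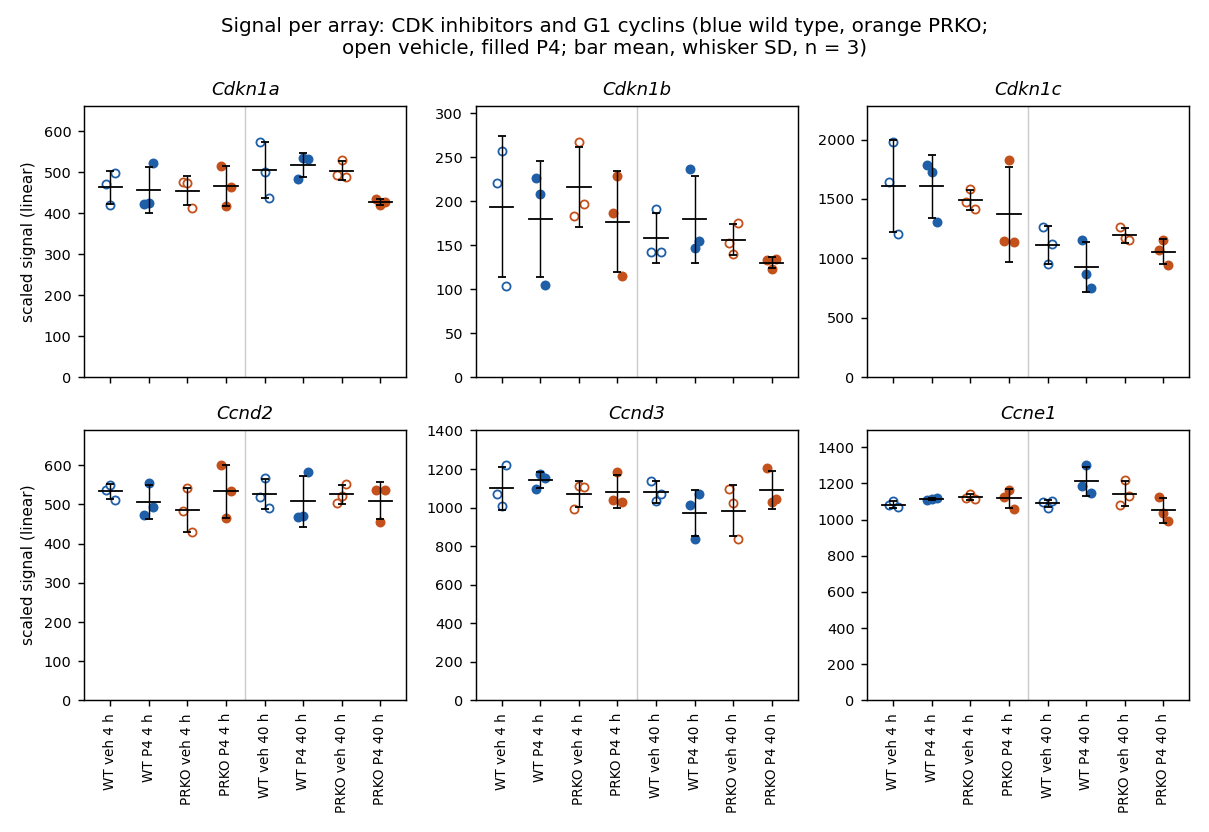
Scaled signal on a linear axis for the CDK inhibitors Cdkn1a, Cdkn1b and Cdkn1c and the G1 cyclins Ccnd2, Ccnd3 and Ccne1 in the 8 groups; points are arrays, the bar is the mean and the whisker the SD of 3 arrays. Cdkn1c vehicle means are 1609 and 1489 at 4 h and 1112 and 1196 at 40 h in wild type and PRKO.

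Vehicle uteri at 40 h, after 4 oil injections, were compared with those at 4 h, after 1, over both genotypes. Of the 40 members 1 passed, where 6.04% of all probe sets did, and 8 had an unadjusted p under 0.05 against 23.9%. Cdc25c had 248, 279 and 254 in wild type and 337, 297 and 285 in PRKO at 4 h, and 345, 349 and 348 against 352, 400.1 and 331 at 40 h. The times did not overlap in wild type and did in PRKO. Cdc25c was higher at 40 h by 0.30 ± 0.06 (adjusted p = 0.0111). With a block for the replicate number Cdc25c did not pass (0.26, adjusted p = 0.0591), and Cdk4 did (0.24, 0.0286). The second Cdc25c probe set differed by -0.02 (adjusted p = 0.775). Within wild type the difference was 0.38 (adjusted p = 0.0593) and within PRKO 0.22 (adjusted p = 0.37). Of the other cell cycle genes 4 were higher at 40 h, led by Pold1, the catalytic subunit of DNA polymerase delta (0.39 ± 0.09, adjusted p = 0.0223), and 4 lower, led by H2az1 (-0.30 ± 0.08, adjusted p = 0.0325).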

How the data were processed

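RNA of 24 arrays in 8 groups was measured. The authors deposited a linear intensity for each probe set and array. Per the submitters' processing notes it came from MAS5, which condenses the probes of a set to 1 signal, and the sources used here give no version or settings. Array medians lay between 323 and 343. The 66 control probe sets were left out, and 12422 were tested, dim ones included, without detection calls. Each array was scaled to a 2%-trimmed mean of 500, 32 was added and log2 taken. Of the probe sets 10833 name a single gene, 396 several and 1193 none.

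One mean per group was fitted with limma 3.58.1 in R 4.3.3 (eBayes with an intensity trend, two-sided, 16 residual and 4.98 prior degrees of freedom). P-values were adjusted by Benjamini-Hochberg over all probe sets within each of 9 comparisons. A further 8, among them those in P4 uteri and those split by genotype or time, were added after seeing the data. The members, lists and tests were chosen with earlier results of these data known. Every member may be named, and each array's values are given for members that passed and for the 3 highest and 3 lowest P4 differences in wild type. The procedure was tested on simulated data. The progesterone response element was first searched as a shorter pattern and then, with that result known, by its full consensus; neither matched a member window. The number of arrays limits the precision. Arrays of the same replicate number correlated in their deviations for P4 in wild type at 4 h (0.114, 0.516 and 0.35). The values were 0.481, 0.0668 and 0.451 for P4 in PRKO at 40 h, and 0.599, 0.455 and 0.0365 for genotype in vehicle at 4 h. Others were lower or of mixed sign, as for genotype in vehicle at 40 h (0.225, -0.071 and 0.188). This is a hint of pairing from the data only. The reported fits left the replicate number out, and it entered only as a block in an alternative. Alternatives were other offsets, a dim filter, quantile or median scaling, all single-gene probe sets, a replicate block, covariates for RNA quality and adipose score, the compared groups alone, and leaving out each array.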

Additional observations from a re-analysis of the deposited data

Results flagged for a closer look

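H2az1, which encodes the histone variant H2A.Z, was picked out because its P4 effect in wild type differed between the times, by 0.74 ± 0.16 on the log2 scale (limma, adjusted p = 0.043). At 4 h it fell by 0.50 ± 0.11 under P4 (adjusted p = 0.039), with group means of 2127 in vehicle and 1485 under P4. At 40 h the difference was 0.23 ± 0.11 (adjusted p = 0.445), with 1556 in vehicle and 1844 under P4. In PRKO uteri the differences were -0.16 and 0.08, and neither genotype difference of the P4 effect passed (adjusted p = 1.00 and 0.811). The wild-type vehicle arrays themselves differed by -0.44 from 4 h to 40 h (adjusted p = 0.0836).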

How the results depend on the processing

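The vehicle genotype count of 5 members was 2 when fitted on the compared groups only, and the P4 genotype count of 5 was 1 with the adipose score as a covariate. The vehicle time count of 1 was 2 (with Mcm5) without the arrays of high Gapdh ratio and with that ratio as a covariate. The P4 genotype count was 6 on the compared groups only (with Mki67) and 7 with the Gapdh ratio as a covariate (with Mcm6 at -0.20, adjusted p = 0.0494, and Mcm7 at 0.20, 0.036). The vehicle genotype count was 6 with that covariate (with Cdk1) and 6 without the arrays of high ratio (with Mcm7 at 0.24, adjusted p = 0.0239). With 1 array left out, the counts ranged from 3 to 6 for genotype in vehicle, 4 to 6 for genotype under P4, 1 to 2 for vehicle time, and 0 to 1 for P4 in wild type at 4 h and for its genotype difference. They stayed at 0 to 0 for the other P4 comparisons. Over all probe sets the genotype count in vehicle, 55 as reported, ranged from 15 to 115 under the alternatives. That under P4, 393 as reported, ranged from 70 to 754. With 1 array left out these ranged from 32 to 68 and from 221 to 457. The vehicle time count of 750 ranged from 343 to 1209 and from 256 to 1026 in the same way. A block for the replicate number left 0 members for every P4 comparison and gave 6 for genotype in vehicle, where Ccnd1 passed at 0.55 (adjusted p = 0.0135). It gave 6 for genotype under P4, where Mcm6 passed at -0.21 (adjusted p = 0.0326). For vehicle time it gave 1, with Cdk4 at 0.24 (adjusted p = 0.0286) and Cdc25c at 0.26 (adjusted p = 0.0591). The cause of these shifts was not tested. Pclaf and Top2a passed in vehicle under all 10 alternatives and 12 left-out arrays. Cks2 lost its call under 1 alternative and 2 left-out arrays (PRKO replicate 3 at 4 h and wild-type replicate 1 at 40 h), and Mki67 under 1 and 3. Fen1 under P4 lost it under 1 and 5. No difference of a passing member turned direction under the alternatives run. Positive members numbered 32 to 36 for genotype in vehicle and 26 to 31 under P4.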

Other observations

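Tyms, the thymidylate synthase gene, shares both of its probe sets with Tyms-ps by annotation, so a value cannot be given to Tyms alone. One of these sets was higher in PRKO vehicle uteri by 0.28 (limma, adjusted p = 0.0123), and the other differed by 0.21 (adjusted p = 0.731).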
